A study of Sus scrofa with 10 samples.

Results

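POU5F1, ZFP42, DNMT3B and MYC are the genes of the pluripotency programme that are described here, in porcine fetal fibroblasts divided by their surface SSEA-1. They were taken as every probe set that carries one of these symbols alone in the platform's annotation. That gave 4 probe sets, 1 for each gene, of 24123 on the array, where 6765 genes had a probe set with a single symbol. The fibroblasts were grown from Danish Landrace/Yorkshire x Duroc fetuses of day 24, from all tissue but the head, and the series title calls them a cell line. The cells were sorted on magnetic beads for SSEA-1 in 5 replicates that the submitters call biological, which gave SSEA1+ and SSEA1- fractions numbered 1 to 5, with 1 Affymetrix array per fraction. The labels name no other treatment and the same serum-containing medium on gelatin for all, and the sources used here give neither the number of fetuses behind the culture nor the purity of the fractions. What separates the 5 replicates is not stated beyond that, so p-values measure the spread between these samples, which may be between sorts of 1 line rather than between animals.

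POU5F1, also called OCT4, is a POU-domain transcription factor needed for the pluripotent state of the early embryo and of the germ line. ZFP42, or REX1, is a zinc finger protein related to YY1 that is widely used as a marker of undifferentiated cells, and DNMT3B is a de novo DNA methyltransferase that is abundant in the early embryo and mostly silenced in differentiated cells. MYC is a growth-promoting transcription factor that dimerises with MAX; it is one of the factors used with POU5F1, SOX2 and KLF4 to reprogramme fibroblasts, but unlike POU5F1 it is also made by ordinary dividing fibroblasts. SSEA-1 is the Lewis X carbohydrate, an antigen of mouse embryonic stem cells and of germ cells in several mammals. The comparison therefore asks whether cells that carry this antigen among fibroblasts also differ in transcripts of this programme.

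The values are log2 signals, and they can be compared between arrays for one probe set but not between probe sets. Background on each array was taken as the 95th percentile of 23 control probe sets, AFFX-r2-Tag and TrpnX, whose targets should be missing from pig RNA. It ran from 0.27 to 0.36 in SSEA1+ arrays and from 0.20 to 0.39 in SSEA1- arrays, a difference of 0.03 (exact two-sided permutation p = 0.5). Of 23935 probe sets that are not controls, 62.4% lay above it on all 10 arrays and 11.5% on none. All 14 measured genes of 17 listed as fibroblast markers, among them VIM, FN1 and PDGFRB, lay above background on all 10 arrays. So did 5461 of all 6765 genes, the epithelial markers KRT8 and CLDN6 among them. Detection of the 14 therefore does not by itself bear out the fibroblast label. Of 5 measured germ cell genes of 17 listed, DDX4, TFAP2C and ALPL were below background on all 10 arrays, whereas KIT and the widely expressed DAZAP1 were above it on all 10. DAZAP1 fell by 0.42 in SSEA1+ (adjusted p = 0.0415 in limma), as did 4.18% of all genes at the threshold of 0.05. The mean signal of those 5 genes was 1.06 to 1.40 in SSEA1+ arrays and 1.19 to 1.35 in SSEA1- arrays. Poly-A spike-ins, RNAs added before labelling, gave signals relative to the hybridisation controls that differed between the fractions (difference 0.74, exact two-sided permutation p = 0.00794, the smallest possible), at -3.64 to -2.94 in SSEA1+ and -4.41 to -3.96 in SSEA1- arrays, without overlap.

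No difference between the fractions was detected for any of the 4 genes. In limma over all 24123 probe sets none passed an adjusted p of 0.05, a threshold that 6.20% of all probe sets passed, and the lowest unadjusted p of the 4 was 0.389. For all 4 the values of the fractions overlapped; over the whole array the fractions did not overlap for 6.50% of probe sets. POU5F1, ZFP42 and DNMT3B read just above background on most arrays, while MYC was far above it on every array.

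POU5F1 was read by a single probe set. Its log2 signal in SSEA1+ replicates 1 to 5 was 0.45, 0.69, 0.41, 0.65 and 0.40, and in SSEA1- replicates 1 to 5 it was 0.50, 0.28, 0.26, 0.54 and 0.64. It was above background on all 5 SSEA1+ arrays and on 3 SSEA1- arrays, with SSEA1- replicates 2 and 3 below, but the excess nowhere passed 0.41 and the fractions overlapped over most of their range. The means were 0.52 ± 0.14 and 0.44 ± 0.17 (SD, n = 5 each), a difference of 0.08 ± 0.09 (SE, adjusted p = 0.719 in limma). Its 95% confidence interval ran from -0.12 to 0.28, and the exact two-sided permutation p was 0.405. The same-numbered fractions gave no common direction, with SSEA1+ higher in 3 of 5 pairs and pair differences from -0.23 in replicate 5 to 0.41 in replicate 2. Without both arrays of replicate 2 the difference was -0.00476, so its sign rested on that pair.

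ZFP42 was also read by 1 probe set. In SSEA1+ replicates 1 to 5 it gave 0.36, 0.41, 0.53, 0.34 and 0.63, and in SSEA1- replicates 1 to 5 it gave 0.52, 0.32, 0.56, 0.49 and 0.27. SSEA1+ replicate 4 and SSEA1- replicate 2 lay below their background, and each fraction had 4 arrays above it. The mean excess over background was 0.14 in both fractions. The means of 0.45 ± 0.12 and 0.43 ± 0.13 (SD, n = 5 each) differed by 0.02 ± 0.08 (SE, adjusted p = 0.922 in limma), with a 95% confidence interval from -0.16 to 0.20 and an exact two-sided permutation p of 0.77. SSEA1+ was higher in 2 of 5 pairs, by 0.36 in replicate 5 and by 0.10 in replicate 2. Without both arrays of replicate 5 the difference was -0.061, and without SSEA1+ replicate 5, SSEA1- replicate 2 or SSEA1- replicate 5 alone it was -0.02, -0.0045 and -0.02.

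DNMT3B, again on 1 probe set, gave 0.63, 0.43, 0.48, 0.32 and 0.49 in SSEA1+ replicates 1 to 5, and 0.59, 0.46, 0.50, 0.49 and 0.64 in SSEA1- replicates 1 to 5. Only SSEA1+ replicate 4 fell below its background, by 0.04, and 9 of 10 arrays were above. The means were 0.47 ± 0.11 and 0.53 ± 0.07 (SD, n = 5 each), and the difference was -0.06 ± 0.07 (SE, adjusted p = 0.7 in limma) with a 95% confidence interval from -0.22 to 0.09 and an exact two-sided permutation p of 0.302. SSEA1+ was lower in 4 of 5 pairs, by at most 0.16, and higher by 0.04 in replicate 1.

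**Figure D1:**
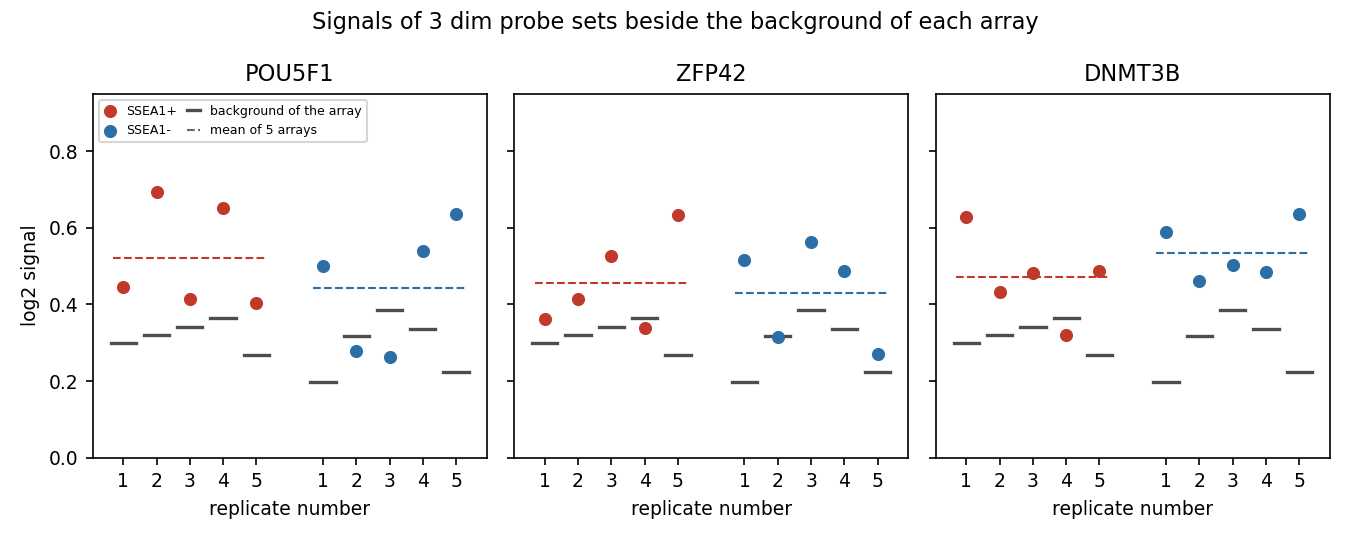
Log2 signals of the POU5F1, ZFP42 and DNMT3B probe sets (y axis) on each of the 10 arrays, by replicate number within SSEA1+ (red) and SSEA1- (blue). Dark bars give the background of each array, between 0.20 and 0.39, and dashed lines the mean of 5 arrays; points of both fractions overlap in each panel and no point is more than 0.41 above its background.

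How many arrays counted as above background for these genes depended on where background was set. Against the highest of the 23 control probe sets of an array, POU5F1 was above on 6 of 10 arrays, ZFP42 on 4 and DNMT3B on 7, whereas against their 90th percentile the counts were 9, 10 and 10. With the AFFX-r2-Tag probe sets alone all 3 genes were above on 9 arrays. Probe sequences were not used here, so the identity of each probe set rests on the platform annotation.

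MYC was the single gene of the 4 with a clear signal. Its probe set has the suffix _s_at, of a kind whose probes can match more than one transcript. In SSEA1+ replicates 1 to 5 it read 5.96, 6.02, 5.60, 6.34 and 6.15, and in SSEA1- replicates 1 to 5 it read 6.15, 6.13, 5.68, 5.64 and 6.21. The lowest readings were SSEA1+ replicate 3, SSEA1- replicate 4 and SSEA1- replicate 3, and the other 7 arrays lay at 5.96 or above, so low and high readings occurred in both fractions. The means of 6.01 ± 0.27 and 5.96 ± 0.28 (SD, n = 5 each) differed by 0.05 ± 0.15 (SE, adjusted p = 0.907 in limma; exact two-sided permutation p = 0.802). The 95% confidence interval ran from -0.27 to 0.37, that is from 0.832-fold to 1.29-fold.

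Within the fractions MYC varied more than most transcripts. Its standard deviation about the fraction means was 0.28, against a median of 0.16 over the 14930 probe sets above background on all 10 arrays, of which 90.1% had a smaller one. From the lowest to the highest array MYC spanned 0.74, or 1.67-fold, while the difference of its fraction means was exceeded in size by 78.0% of those probe sets. The sign of that difference rested on single arrays. SSEA1+ exceeded SSEA1- by 0.69 in replicate 4 and was lower in the other 4 pairs, by 0.05 to 0.20. Without replicate 4 the difference was -0.11, without SSEA1+ replicate 4 alone -0.03, and without SSEA1- replicate 3 or SSEA1- replicate 4 alone -0.02 and -0.03. Replicate 4 was also the number whose fractions were least alike over all probe sets, with a correlation of 0.12 between their deviations from the fraction means.

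The MYC estimate depended on whether the poly-A spike-in level was in the model. With that level as a covariate the MYC difference was 0.69 ± 0.20 (SE, unadjusted p = 0.00434, adjusted p = 0.191 in limma). With the replicate number as a block beside it, the difference was 0.73 ± 0.32 (SE, adjusted p = 0.441 in limma). SSEA1+ replicate 3, the array with the highest poly-A level, had the lowest MYC signal. The poly-A levels of the fractions did not overlap, so these estimates extrapolate, and the part of the spike-in level in the MYC readings was not tested. The covariate left POU5F1 at 0.19 ± 0.18, ZFP42 at -0.15 ± 0.16 and DNMT3B at -0.10 ± 0.14 (SE), with adjusted p of 0.746, 0.782 and 0.851 in limma.

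The genes most like MYC over the 10 arrays were sought among 8402 probe sets with a single symbol and a mean above background, without use of the fractions. IER5, an immediate early response gene, came first with a Pearson correlation of 0.973 and a Spearman correlation of 0.867. NFKBIA, the inhibitor of NF-kappaB that is itself induced by NF-kappaB, followed at 0.957 and 0.842, and PLK2, a serum-inducible polo-like kinase, at 0.957 and 0.976. These are the highest of many correlations over 10 arrays that also share their normalization, so they carry no p-value. MYC readings fell into a lower set of 3 arrays and a higher set of 7. Without the 2 arrays farthest from the MYC median they were 0.941, 0.946 and 0.904, and within the 7 higher arrays the Pearson correlations were 0.816, 0.853 and 0.849. KLF4, the Krüppel-like factor of the reprogramming set and a gene fixed for description whatever its value, ranked 11 of 8402 at 0.924, with a Spearman correlation of 0.867 and 0.627 within the 7 higher arrays.

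The readings of these genes illustrate the patterns. IER5, NFKBIA and PLK2 were chosen for their correlation with MYC on these same arrays, so their likeness is no separate evidence. KLF4 gave 6.56, 6.92, 6.25, 7.04 and 6.999 in SSEA1+ replicates 1 to 5 and 6.96, 7.22, 6.44, 6.32 and 6.97 in SSEA1- replicates 1 to 5. IER5 gave 7.38, 7.31, 6.87, 7.61 and 7.50, and then 7.55, 7.53, 6.91, 6.92 and 7.45, in the same order. For both genes SSEA1+ replicate 3, SSEA1- replicate 3 and SSEA1- replicate 4 were the lowest arrays, as they were for MYC. NFKBIA had the widest range, from 3.29 in SSEA1- replicate 4 to 5.12 in SSEA1+ replicate 4. In replicate 4 SSEA1+ exceeded SSEA1- by 0.72 for KLF4, 0.69 for IER5, 1.84 for NFKBIA and 0.99 for PLK2. None of these 4 genes passed in limma, with differences of -0.03 for KLF4, 0.06 for IER5, 0.20 for NFKBIA and 0.03 for PLK2 and adjusted p of 0.959, 0.888, 0.826 and 0.957. With the poly-A covariate KLF4, too, read 0.85 ± 0.23 (SE, unadjusted p = 0.00238, adjusted p = 0.167 in limma).

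**Figure D2:**
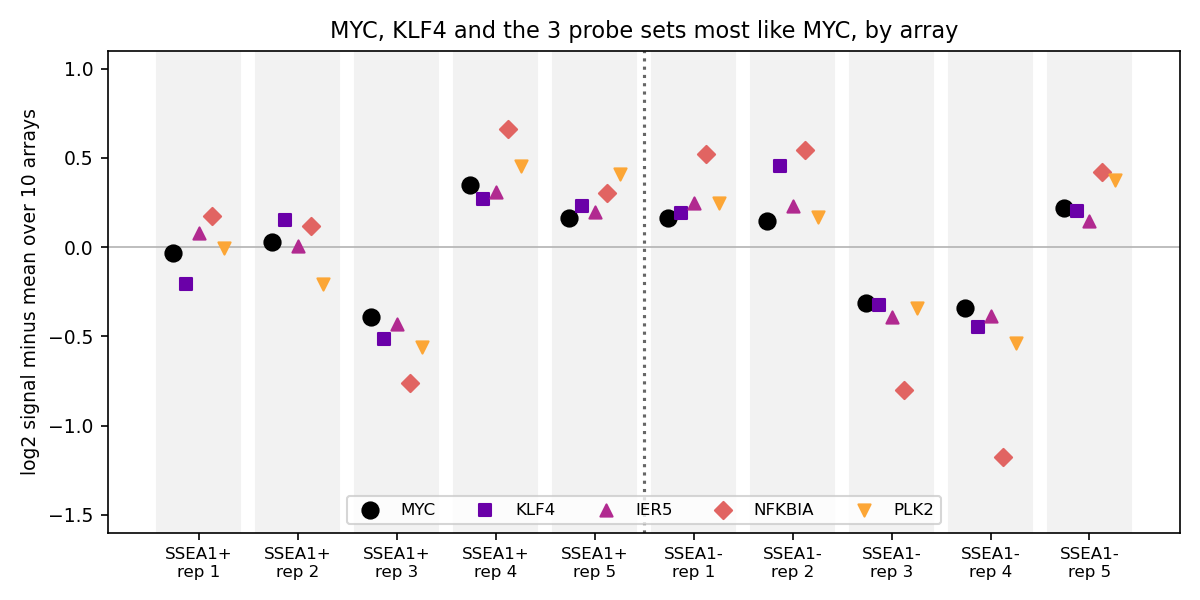
Log2 signal of MYC (black), KLF4, IER5, NFKBIA and PLK2 minus each probe set's mean over the 10 arrays (y axis), on each array of SSEA1+ (left of the dotted line) and SSEA1- (right). All 5 genes lie below their means in SSEA1+ replicate 3 and in SSEA1- replicates 3 and 4, where MYC read 5.60, 5.68 and 5.64.

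The 4 genes belong to a wider pluripotency list. Of 47 listed genes 10 were measured, 4 of them above background on all 10 arrays and ALPL and DPPA5 below it on all 10; SOX2, NANOG, LIN28A, SALL4 and MYCN were among the 37 with no probe set named here. None of the 10 passed in limma, where 3.21% of all genes rose and 4.18% fell. None passed with the replicate block either, where 5.65% rose and 8.62% fell. A count of 0 among 10 genes is near these shares. Of the 10, 1 had an unadjusted p under 0.05 in limma, a share that was not counted over all genes. The median difference of the 10 was 0.04 against -0.01 over all 6765 genes. The nearest to passing was STAT3, the transcription factor downstream of LIF, at 5.07 ± 0.08 against 4.91 ± 0.08 (SD, n = 5 each) and an adjusted p of 0.185 in limma. KLF2, a Krüppel-like factor of naive pluripotency in the mouse, read 0.49 ± 0.14 against 0.68 ± 0.15 (SD, n = 5 each), near background, with an adjusted p of 0.262 in limma.

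The list of POU and YY family genes holds POU5F1 and ZFP42 themselves; 7 of its 17 genes were measured and 1 rose, where 3.21% of all genes rose and 4.18% fell. POU2F1, or OCT1, the broadly expressed POU factor, gave 1.57, 1.68, 1.65, 1.50 and 1.44 in SSEA1+ replicates 1 to 5 and 1.21, 1.22, 1.18, 0.90 and 1.36 in SSEA1- replicates 1 to 5. Every SSEA1+ array was above every SSEA1- array, and the difference was 0.39 ± 0.09 (SE, adjusted p = 0.02 in limma). That call held without any single array and ended without both arrays of replicate 1, 2 or 3. YY1, the ubiquitous zinc finger relative of ZFP42, differed by 0.02 ± 0.06 on its brighter probe set and by -0.10 ± 0.13 on its dimmer one (SE, adjusted p = 0.913 and 0.742 in limma).

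The other DNA methyltransferases were measured with more signal than DNMT3B on their brightest probe sets. DNMT1, the maintenance methyltransferase that copies methylation at replication, read lower in SSEA1+ on the 3 of its 4 probe sets that were above background on all arrays. The brightest gave 5.95, 6.01, 6.42, 6.47 and 6.14 in SSEA1+ replicates 1 to 5 and 6.60, 6.28, 6.82, 6.59 and 6.87 in SSEA1- replicates 1 to 5, lower in 5 of 5 pairs with overlapping fractions. Its difference of -0.43 ± 0.13 did not pass (SE, adjusted p = 0.0624 in limma), and passed with the replicate block at an adjusted p of 0.0149 in limma. The next probe set gave -0.43 ± 0.14 with an adjusted p of 0.102 in limma, or 0.00582 with the block. The third read 0.76 ± 0.34 against 1.34 ± 0.15 (SD, n = 5 each) and passed at -0.57 ± 0.14 (SE, adjusted p = 0.0301 in limma), a call that ended in 6 of 10 single-array leave-outs, namely those of SSEA1+ replicates 1, 2 and 5 and SSEA1- replicates 1, 3 and 4. Leaving out a pair ended it for pairs 1, 2, 3 and 5. On this probe set SSEA1+ replicate 5 read 0.31, only 0.04 above its background and below the highest control probe set of that array, at 0.50. Once the poly-A level was a covariate, the same 3 probe sets read -0.59, -0.68 and -0.98, and with the block beside it -0.26, -0.22 and -0.32, without a call.

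DNMT3A, the second de novo methyltransferase, gave 4.07, 3.79, 3.76, 4.15 and 4.17 in SSEA1+ replicates 1 to 5 and 4.28, 3.83, 3.78, 3.43 and 4.01 in SSEA1- replicates 1 to 5. SSEA1- replicate 4 was its lowest array, and the difference of 0.12 ± 0.14 did not pass (SE, adjusted p = 0.703 in limma). Of 9 measured genes of 24 in the DNA methylation list none passed in limma. An unadjusted p below 0.05 in limma was reached by 3, a share that was not counted over all genes. With the replicate block 2 fell, DNMT1 and the methyl-CpG binding protein MBD1, where 5.65% of all genes rose and 8.62% fell. MBD1 read 2.93 ± 0.18 against 3.29 ± 0.15 (SD, n = 5 each), with an adjusted p of 0.0502 without the block and 0.025 with it in limma. The median of the 9 was -0.02.

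The MYC network list holds MYC itself with its partners and regulators; 16 of its 29 genes were measured, 2 rose and none fell, beside 3.21% and 4.18% of all genes. MXD4, a MAX-binding repressor that opposes MYC, gave 4.16, 3.98, 3.90, 3.98 and 3.96 in SSEA1+ replicates 1 to 5 and 3.59, 3.77, 3.57, 3.80 and 3.37 in SSEA1- replicates 1 to 5. The fractions did not overlap, and MXD4 rose by 0.38 ± 0.09 (SE, adjusted p = 0.0252 in limma), a call lost without SSEA1+ replicate 1 or 5 or without SSEA1- replicate 1, 3 or 5, and when pair 1, 3 or 5 was dropped. EP400, the chromatin remodelling subunit that MYC can recruit, rose by 0.82 ± 0.09 on one probe set (SE, adjusted p = 0.000379 in limma) and read 0.04 ± 0.07 on a dimmer one. With the replicate block 2 rose and 3 fell, beside 5.65% and 8.62% of all genes, the latter being the mitotic kinase AURKA, the MAX-binding protein MXD3 and the AAA+ ATPase RUVBL2, at -0.60, -0.42 and -0.38. Their adjusted p in limma were 0.319, 0.397 and 0.0572 without the block and 0.00537, 0.0208 and 0.00766 with it. MAX, MYCN and MYCL were not measured under a single symbol.

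Genes known as MYC targets were measured for 37 of 47 listed. Of these 1 rose, 2 fell and 34 did not pass, shares near the 3.21% and 4.18% of all genes, with a median of -0.09, and 26 of 37 read lower in SSEA1+ against 3547 of 6765 genes in all. CCND2, cyclin D2, gave 7.98, 7.67, 7.89, 7.40 and 7.80 in SSEA1+ replicates 1 to 5 and 7.17, 7.15, 6.92, 7.04 and 6.88 in SSEA1- replicates 1 to 5. All SSEA1+ arrays were above all SSEA1- arrays, and CCND2 rose by 0.72 ± 0.11 (SE, adjusted p = 0.00229 in limma), a call that held in every leave-out. PA2G4, a growth-regulated RNA-binding protein, fell by 0.50 ± 0.11 (SE, adjusted p = 0.0176 in limma), and PUS7, a pseudouridine synthase, fell by 0.37 ± 0.09 (SE, adjusted p = 0.0258 in limma). The PA2G4 call ended without SSEA1+ replicate 1 or without pair 1, 3 or 5, and that of PUS7 held in only 2 of 10 single-array leave-outs, those of SSEA1+ replicate 4 and SSEA1- replicate 2. With the replicate block, where 5.65% of all genes rose and 8.62% fell, 1 rose and 7 fell, among them the nucleolar proteins NOP56 and LYAR at -0.52 and -0.49, with adjusted p in limma of 0.0703 and 0.163 without the block and 0.00561 and 0.00175 with it. With the poly-A covariate no gene of the list passed in limma, CCND2 reading 0.48 ± 0.20 and PA2G4 -0.74 ± 0.20 (SE). That covariate left 12 calls among all 24123 probe sets.

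**Figure D3:**
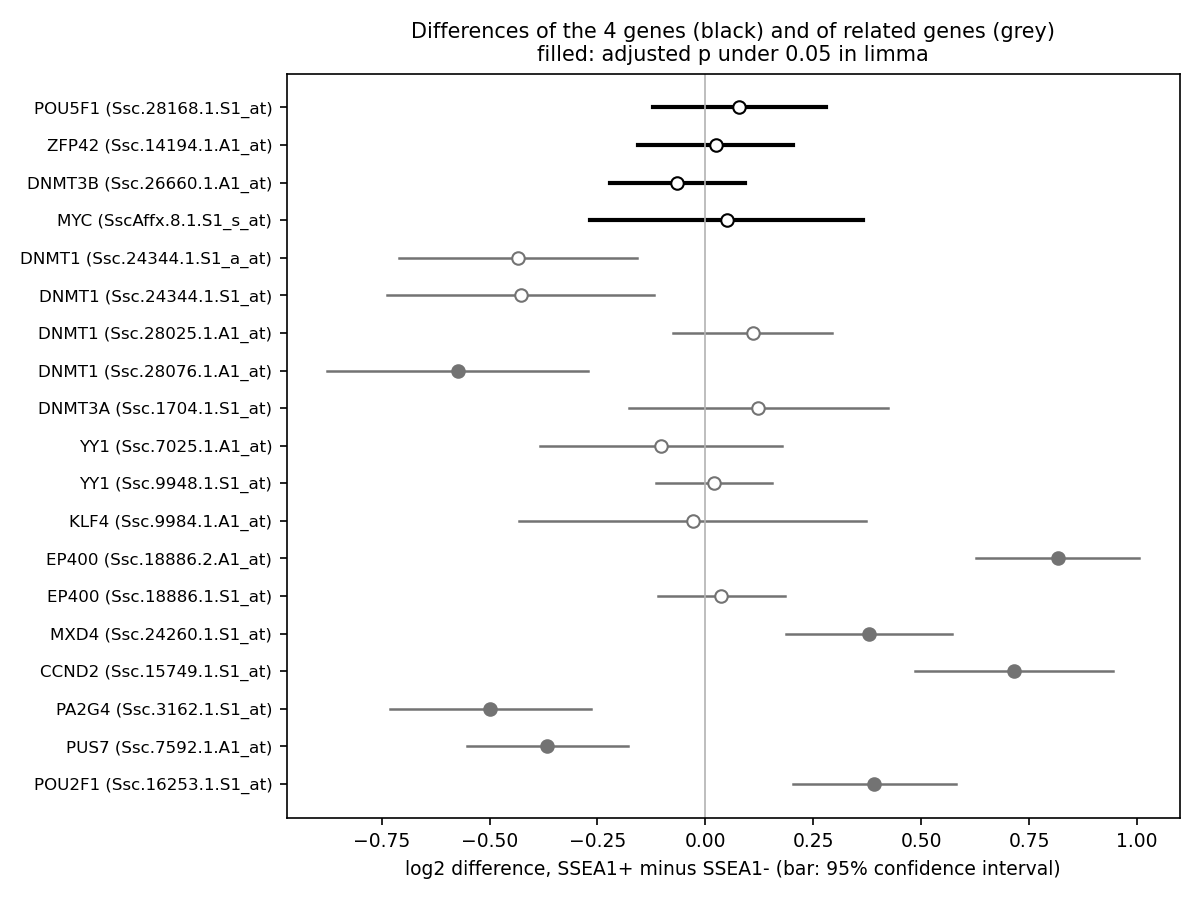
Log2 difference of SSEA1+ minus SSEA1- (x axis; bars, 95% confidence interval from limma) for the probe sets of the 4 genes (black) and of related and list genes (grey), filled where the adjusted p is under 0.05. All 4 black intervals include 0, and the widest, of MYC, runs from -0.27 to 0.37.

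**Figure D4:**
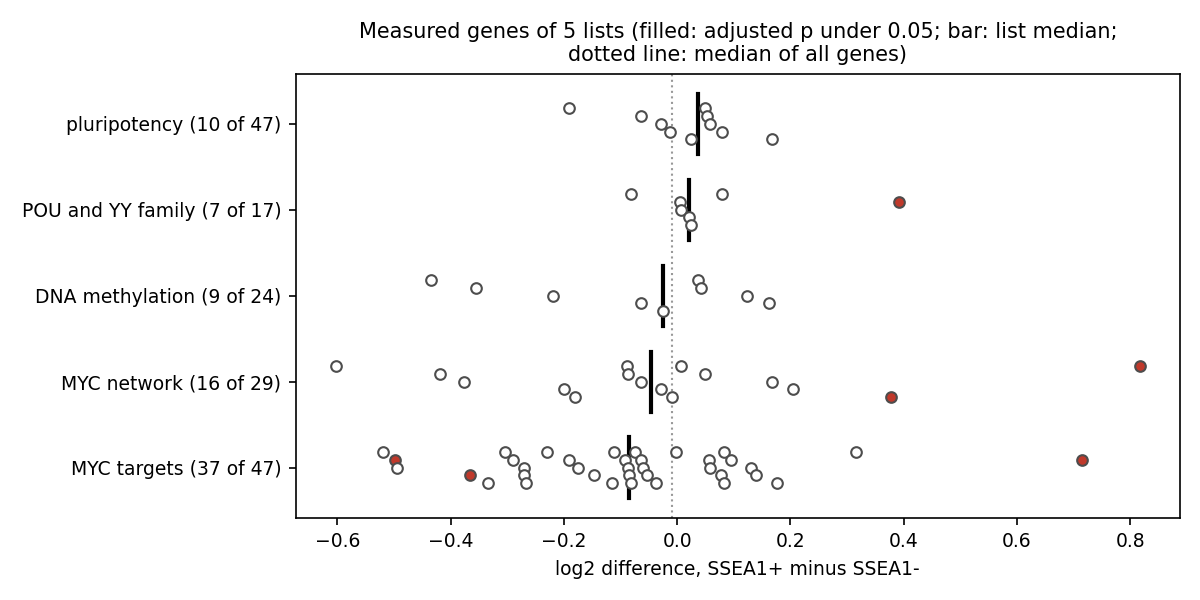
Log2 difference of SSEA1+ minus SSEA1- (x axis) for each measured gene of 5 lists, read from its brightest probe set; filled points passed limma, bars are list medians and the dotted line is the median of all genes, -0.01. No point of the pluripotency list is filled, and the MYC targets have their median at -0.09.

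Markers of other cell types were read beside these results. Of 9 measured epithelial genes of 11 listed, 6 were above background on all 10 arrays, KRT8, KRT18 and CLDN6 among them, and none passed in limma. Of the 9 genes, 6 read higher in SSEA1+ and 3 lower. EPCAM, KRT19, CDH1 and CLDN4 read higher by 0.25, 0.40, 0.18 and 0.24, with unadjusted p in limma of 0.0109, 0.0234, 0.025 and 0.0313. The share of all genes with an unadjusted p under 0.05 was not counted. KRT8, KRT18 and ESRP1 read lower, at -0.05, -0.09 and -0.04. KRT19 passed with the replicate block (adjusted p = 0.0272 in limma), where 5.65% of all genes rose. EPCAM was above background on 5 of 10 arrays and CDH1 on 9. The part of these genes in the results above was not tested. The list's mean signal was 1.74 to 2.16 in SSEA1+ and 1.64 to 2.12 in SSEA1- arrays. In the neural crest list 4 of 13 genes were measured and none passed at an adjusted or unadjusted p of 0.05 in limma, with means of 0.42 to 0.63 and 0.44 to 0.63. For endothelial genes, 10 of 11 measured, the means were 0.66 to 0.75 and 0.69 to 0.74, and ERG fell. For blood genes, 8 of 12 measured, they were 0.67 to 0.81 and 0.65 to 0.87, with no call. Of the 8, only HBB, with a mean signal of 4.46, was above background on all 10 arrays. The other 7 ranged from CD14, above it on 9 arrays, to genes such as PTPRC, above it on 1. The means of 6 of 10 muscle genes were 5.73 to 5.98 and 5.48 to 5.93, with no call. Of the 6, ACTA2, TAGLN, DES and CNN1 were above background on all 10 arrays. MYOD1 and MYF5 read near background, at 0.37 and 0.56, and were above it on 8. The means of the fibroblast list were 7.03 to 7.30 and 7.12 to 7.34, with COL1A2 rising. Over all genes 3.21% rose and 4.18% fell without the block. With the replicate block 2 of the 14 measured fibroblast genes rose and 2 fell, beside 5.65% and 8.62% of all genes. These were COL1A2 and THY1, the latter by 0.34, and FAP and POSTN, which fell by 0.50 and 0.59. The adjusted p of THY1, FAP and POSTN in limma were 0.0146, 0.00433 and 0.000737 with the block. Without it they were 0.0564, 0.0665 and 0.0948, so none of these 3 passed in the reported test. In such bulk fractions a small share of cells that express a gene cannot be told apart from a low level in all cells. Near background, neither can be told apart from signal that does not come from the gene's transcript. Both limits apply to the near-background readings of POU5F1, ZFP42 and DNMT3B.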

How the data were processed

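Total RNA of 10 sorted fractions was measured on Affymetrix porcine arrays, 1 per fraction, from biotin-labelled cRNA. The authors deposited 1 log2 signal for each probe set and array, computed with RMA per the submitters' processing notes, which name no version. Array medians of 1.15 to 1.19 needed no further scaling, and 4.55% to 8.16% of values per array lay below 0. Of 24123 probe sets, 188 are array controls; 10099 had a single symbol in the platform annotation and 198 had several and were not named. Symbols were updated by Entrez identifier against RefSeq genes of Sscrofa11.1 (9989 matched, 0 changed).

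Fractions, grouped by sample title, were tested with limma 3.58.1 (R 4.3.3) on all probe sets, with Benjamini-Hochberg adjustment and a threshold of 0.05. A gene of a list was read from its brightest probe set. Single values were also compared by an exact two-sided permutation test over 252 assignments, whose smallest p is 0.00794. The poly-A level was the mean of 39 spike-in probe sets minus that of 27 hybridisation controls. The procedure was tested on simulated data.

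Named besides the 4 genes were up to 8 passing members per pathway list, measured direct relatives (DNMT1, DNMT3A, YY1, KLF4) and the 3 genes most correlated with any member above background on all 10 arrays. STAT3, KLF2, MBD1, AURKA, MXD3, RUVBL2, NOP56, LYAR and the named markers were chosen after their values were seen. Members and lists were chosen with earlier results of these data known. Same-numbered fractions were taken as pairs, since the series text can be read so and their deviations correlated at 0.21, 0.58, 0.36, 0.12 and 0.25 in replicates 1 to 5; replicate 4 (0.31 and 0.30) and SSEA1- replicate 5 (0.31) correlated more with a fraction of another number. The reported limma and permutation tests did not use this pairing, and the replicate block was an alternative. Precision is limited by the 5 arrays per fraction.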

Additional observations from a re-analysis of the deposited data

Results flagged for a closer look

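In 3 sets of 5 arrays, of 46 examined, 1 array lay far from the others by Dixon's criterion; chance alone gives about 5% of such sets. On the second DNMT1 probe set SSEA1- replicate 2 was lowest at 3.73, its gap being 0.712 of the range. For EP400 SSEA1- replicate 4 was highest at 1.41, with a gap of 0.753. For PUS7 SSEA1- replicate 2 was lowest at 5.67, with a gap of 0.952. No array of POU5F1, ZFP42, DNMT3B or MYC met this criterion.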

How the results depend on the processing

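None of the 4 genes passed under any of the 27 other settings run for each; the lowest adjusted p in limma was 0.533 for POU5F1, 0.765 for ZFP42, 0.51 for DNMT3B and 0.191 for MYC. When arrays or pairs were left out, the differences ran from -0.00476 to 0.16 for POU5F1, -0.061 to 0.069 for ZFP42, -0.10 to -0.03 for DNMT3B and -0.11 to 0.15 for MYC. With the poly-A covariate ZFP42 read -0.15, and with the replicate block beside it ZFP42 read -0.17 and POU5F1 -0.040, against positive values under the other settings that kept all arrays; the cause was not tested. The replicate block changed no call of the 4. Against the highest control probe set ZFP42 was above background on 4 arrays instead of 8. The background difference of 0.03 ran from 0.00 to 0.05.

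The count of changed probe sets, 1495, was 2832 with a fixed and 2561 with a random replicate block. It was 2018 with array weights, 1510 with trend and robust settings, 1492 with median centring and 1604 with the filter on level. With the poly-A covariate it was 12, with that covariate and the fixed block 4, and in leave-outs 384 to 1834. Of the DNA methylation list, 0 passed in the reported test, 2 with either block and with array weights, 1 with trend and robust settings, median centring or the filter on level, and 0 to 1 in leave-outs. The MYC network counted 5 with the fixed block against 2 (1 to 3 in leave-outs), and MYC targets 8 with the fixed and 6 with the random block against 3 (1 to 5). The POU and YY family counted 0 to 1 in leave-outs. With the poly-A covariate, alone or with the block, these last 3 lists counted 0.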
